A study of Rattus norvegicus with 24 samples.

Results

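The microglia and leukocyte marker genes considered here were 10 genes of the rat, Aif1, Cd14, Itgam, Itgb2, Cd53, Csf1, Fcgr2b, Ptprc, Tyrobp and Laptm5. Their probes were found through the RefSeq accession that the array files give for each probe, which led to 8 of the 33849 rat probes. These 8 probes stood for 7 of the 10 genes, with 1 probe each for Aif1, Cd14, Itgam, Cd53, Csf1 and Ptprc and 2 probes for Laptm5. Itgb2, Fcgr2b and Tyrobp matched no probe by accession and were not analysed here. Accessions led to symbols for 4675 probes and 4013 genes in all.

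The arrays measured RNA from whole retinas of male Sprague Dawley rats, with 1 array per sample on the CodeLink rat whole genome platform. The diabetic rats were injected with streptozotocin (STZ) at 65 mg/kg, which kills the beta cells of the pancreatic islets, and the controls with its citrate vehicle. Diabetic and control retinas were collected either 1 or 3 months after the injection, and each of the 4 groups held 6 arrays. The animal table of the study lists fewer 1 month control rats than there are 1 month control arrays, so n counts arrays, and it may exceed the number of rats in that group. No insulin was given, so the model is one of untreated insulin deficiency, and the rats were of a single sex and strain whose age is given only by the time since the injection. The question of each comparison was which transcripts differed between diabetic and control retinas of the same time point.

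Microglia are the resident macrophages of the retina. They arise from myeloid precursors, depend on signalling through the CSF1 receptor, survey the inner and outer plexiform layers with fine processes, and retract these processes, migrate and take up debris when the tissue is injured. They share most of their surface receptors with macrophages and other leukocytes that can enter from the blood, so that none of the genes described here marks microglia alone. In RNA of whole tissue, fewer or more of these cells and less or more RNA per cell cannot be told apart.

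Values are spot intensities after local background subtraction, divided by the median of the rat probes of the same array, and are called scaled intensities. A scaled intensity of 1 is therefore the level of the median probe. The 62 probes for bacterial genes on each array have no target in the rat and served as a measure of background. A probe was taken to be above background on an array when its scaled intensity exceeded the 95th percentile of the bacterial probes of that array. The median of this limit over arrays was 0.913 for 1 month controls, 0.716 for 1 month STZ, 1.27 for 3 month controls and 1.41 for 3 month STZ. The median bacterial probe itself lay between 0.0589 and 0.137 on the 1 month arrays and between 0.447 and 0.750 on the 3 month arrays. Among tested probes, 68.4% and 72.5% were above background on all 6 arrays of the 1 month control and STZ groups, against 31.7% and 53.1% in the 3 month control and STZ groups. The array of 3M Control 2 was unlike the other 3 month control arrays, to which its median correlation was 0.842. Several results for the marker probes are given with and without it. The lists of other genes and the correlations within the 3 month arrays are given only with 3M Control 2. Sag, which encodes the arrestin of rod photoreceptors and marks the retina, was above background on every array.

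By these measures the labels of the genes held to different degrees. Aif1, which encodes the calcium-binding protein IBA1 used to stain microglia, was above background on all 24 arrays. Itgam, which encodes the CD11b chain of complement receptor 3, was above background on all 12 arrays at 1 month, on 0 of 6 control arrays and on 3 of 6 STZ arrays at 3 months. Ptprc, which encodes the pan-leukocyte phosphatase CD45, was above background on 0 of 24 arrays and never exceeded the median bacterial probe. At 1 month the probe of Cd53 was above background on 10 arrays, that of Csf1 on 7 and the first of Laptm5 on 8, and at 3 months none of these was on any array. The Cd14 probe was above background on 3 of 24 arrays and the other Laptm5 probe on 0.

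RefSeq promoter sequences (GRCr8) were found for 5 of the 10 genes. At 3 months the Itgam probe and 1 of the 2 Laptm5 probes passed the test, and the Cd53 probe passed it in some fits. The promoters of these 3 genes are shown. They run 5′ to 3′ on the strand of the gene over the 170 bases that end at the base before the annotated start, and capitals mark GAGGAA or its reverse complement TTCCTC, a core often bound by the myeloid factor PU.1. The Itgam window is chr1:192089422-192089591 on the plus strand, that of Cd53 is chr2:197087897-197088066 on the minus strand and that of Laptm5 is chr5:148371710-148371879 on the plus strand.
Itgam: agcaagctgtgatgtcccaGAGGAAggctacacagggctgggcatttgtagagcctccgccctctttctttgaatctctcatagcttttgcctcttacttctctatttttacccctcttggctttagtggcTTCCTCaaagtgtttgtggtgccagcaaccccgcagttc
Cd53: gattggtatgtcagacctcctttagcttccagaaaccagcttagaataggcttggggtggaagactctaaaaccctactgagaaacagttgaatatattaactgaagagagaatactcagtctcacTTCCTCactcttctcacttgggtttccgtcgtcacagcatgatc
Laptm5: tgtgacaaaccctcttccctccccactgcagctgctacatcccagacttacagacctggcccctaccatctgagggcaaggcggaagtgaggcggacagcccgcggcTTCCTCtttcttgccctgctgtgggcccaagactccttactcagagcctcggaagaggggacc
Within 250 bases before the start, the 6 letters occurred on either strand in all 5 member promoters in the table, Itgam, Cd53, Laptm5, Ptprc and Cd14, and in 7812 of 33469 promoters (23.3%) of the whole table. Itgam held 2 matches, with the first base 151 and 39 bases before the start, while Cd53 and Laptm5 held 1 match each, at 44 and 63 bases. A match is a description of the letters and not a measured binding site, and the arrays did not measure binding.

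Diabetes of 3 months was accompanied by a higher Itgam signal and by a lower signal of 1 of the 2 Laptm5 probes, and at 1 month none of the marker probes passed the test. That Laptm5 probe, GE12766, was above background on 0 of 24 arrays. Its 3 month call was made in 8 of 24 fits that left out 1 array, against 24 of 24 for Itgam. Of the 7 marker probes bright enough to be tested, 1 was called higher and 1 lower in STZ retinas at 3 months, where a call is a limma Benjamini-Hochberg adjusted p under 0.05 over all 22025 tested probes and a difference of at least 1.2-fold. The same call was made for 54.1% of all tested probes at 3 months, 50.5% higher and 3.55% lower in STZ, so the share of marker probes called was below that of the array as a whole. The median difference of the 7 marker probes was 0.092 on the log2 scale, against 0.44 for all tested probes, and 1 of the 7, Itgam, lay above the median of all probes. Without 3M Control 2 the median of all tested probes was 0.32, and Itgam (0.48) and Aif1 (0.45) lay above it. Cd53 (0.31), Cd14 (0.28), Laptm5 GE13135 (-0.0035), Csf1 (-0.088) and Laptm5 GE12766 (-0.29) then lay under it. Quantile normalization lowered the median of all probes to 0.159 and gave 5424 higher and 1524 lower calls where median scaling gave 11130 and 781. The marker probes then lay on both sides of that median. Itgam had 0.85, Cd53 0.49, Laptm5 GE13135 0.25 and Cd14 0.163, while Csf1 had 0.11, Aif1 -0.36 and Laptm5 GE12766 -0.44. At 1 month 0 of 7 marker probes were called in either direction, where 0.00908% of all tested probes (2 probes) were called and 927 had an unadjusted p under 0.05, among them 0 marker probes. For the interaction 0 of 7 marker probes were called, where 15.5% of all tested probes were. Among the marker probes 1, Laptm5 GE12766, had an unadjusted limma p under 0.05, as did 8954 of all 22025 tested probes. For none of the 7 probes did the 6 STZ arrays lie wholly beyond the 6 control arrays at either time, which 10.2% of tested probes did at 3 months and 0.545% at 1 month.

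**Figure D1:**
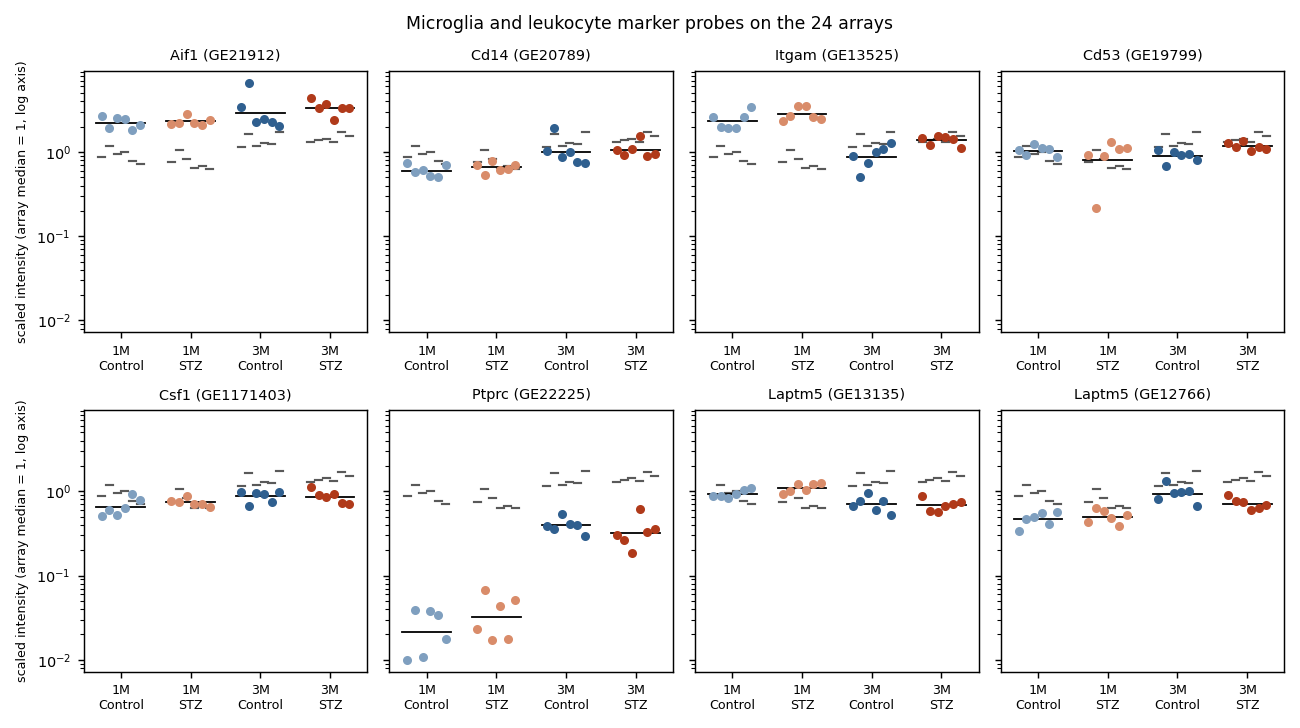
Scaled intensity (log axis, array median = 1) of the 8 marker probes on the 24 arrays. Points are arrays in replicate order within each group, short grey bars give each array's background limit (95th percentile of the bacterial probes), and black lines give the mean of log2 values; Aif1 lay above the limit on all 24 arrays, Itgam on all 12 arrays at 1 month and on 3 at 3 months, and Ptprc on none.

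Itgam is the alpha chain that pairs with the beta chain encoded by Itgb2 to form complement receptor 3, through which microglia and neutrophils adhere and take up complement-coated particles. Its scaled intensity at 3 months ran from 0.506 through a median of 0.946 to 1.27 on control arrays and from 1.12 through 1.46 to 1.55 on STZ arrays. The control array with the lowest value was 3M Control 2, and 4 of the 6 STZ arrays exceeded the highest control array. All 6 STZ arrays lay above the control median, yet the groups overlapped. The log2 difference was 0.64 (SE 0.19, n = 6 arrays per group), with a limma adjusted p of 0.00733. Since no control array was above background, the fold of the means is only bounded, at 1.01-fold or more. Without 3M Control 2 the difference was 0.48 with an adjusted p of 0.0234.

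At 1 month the Itgam probe read 1.92, 2.31 and 3.38 on control arrays and 2.31, 2.63 and 3.54 on STZ arrays, given as lowest, median and highest. Here 5 of 6 STZ arrays exceeded the control median and 2 exceeded the highest control array. The log2 difference was 0.25 (SE 0.19), with a limma adjusted p of 1.00. The change in the effect between the time points, tested as an interaction, was 0.39 (SE 0.27) with an adjusted p of 0.248, where 15.5% of all tested probes were called. An effect at 3 months alone was therefore not shown.

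Brightness, spread and background of the arrays also differed between the 3 month groups, and the Itgam difference was also fitted under other settings. The interquartile range of log2 values was 1.48 to 2.23 on control arrays and 2.07 to 2.70 on STZ arrays. Because these array traits differed along with the group, their part in the difference was not tested. The median unscaled intensity was 232 on 3 month control arrays and 148 on STZ arrays, and with array brightness as a covariate the difference was 0.30 with a limma adjusted p of 0.175. When the interquartile range of log2 values was the covariate it was 0.63 with an adjusted p of 0.568, a setting under which 0 of all tested probes were called. Among the 32 probes of the 6 dimmest bacterial genes, 28 were lower in STZ than in control arrays at 3 months, with a median log2 difference of -0.47, while 18 of the 30 probes of the other 6 bacterial genes were higher, with a median of 0.12, and the background limit was higher in STZ arrays as given above. Subtracting the level of the 32 dim bacterial probes from each array gave an Itgam difference of 1.67 (SE 0.45) with a limma adjusted p of 0.00731, and quantile normalization gave 0.85 with 0.00847.

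Aif1 encodes an actin-bundling protein of microglia and macrophages, and its probe was the only marker probe above background on every array. At 1 month its scaled intensity ran from 1.81 through 2.28 to 2.71 on control arrays and from 2.09 through 2.20 to 2.85 on STZ arrays. At 3 months it ran from 2.06 through 2.39 to 6.68 on control arrays and from 2.40 through 3.32 to 4.42 on STZ arrays. The highest of all values was that of 3M Control 2, and all 6 STZ arrays lay above the control median while none exceeded that array. The log2 difference was 0.052 (SE 0.21) at 1 month and 0.21 (SE 0.21, limma adjusted p of 0.400) at 3 months, and neither was called. Without 3M Control 2 the 3 month difference was 0.45 (SE 0.15) with an adjusted p of 0.0234, and the probe was then called higher. Under quantile normalization of all 24 arrays the sign turned, to -0.36 with an adjusted p of 0.356, and without 3M Control 2 the quantile-normalized difference was 0.024 with an adjusted p of 0.933.

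Cd14 is the co-receptor that passes lipopolysaccharide to Toll-like receptor 4. Its probe read 0.502, 0.597 and 0.735 on 1 month control arrays and 0.530, 0.668 and 0.788 on 1 month STZ arrays as lowest, median and highest. At 3 months it read 0.742, 0.938 and 1.91 on control arrays and 0.900, 1.01 and 1.53 on STZ arrays. The highest control value was again that of 3M Control 2, and the probe was above background on 1 array in each group except the 1 month controls, where it was on 0. The log2 differences were 0.13 (SE 0.18) at 1 month and 0.092 (SE 0.18, limma adjusted p of 0.678) at 3 months. Without 3M Control 2 the latter was 0.28 with an adjusted p of 0.123, and only quantile normalization without that array gave a call, with 0.47 and 0.0325.

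Csf1 encodes the growth factor that maintains microglia through the CSF1 receptor. The Csf1 probe read 0.512, 0.616 and 0.933 on 1 month control arrays and 0.647, 0.735 and 0.881 on 1 month STZ arrays, and all 6 STZ arrays lay above the control median. At 3 months it read 0.665, 0.952 and 0.994 on control arrays and 0.704, 0.876 and 1.14 on STZ arrays, where 1 STZ array lay above the control median, and no array was above background. The log2 differences were 0.20 (SE 0.16) at 1 month and -0.0099 (SE 0.16) at 3 months, with limma adjusted p-values of 1.00 and 0.960. The 3 month sign turned under quantile normalization, to 0.11, and after subtraction of the bacterial level, to 0.34, with no call.

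**Figure D2:**
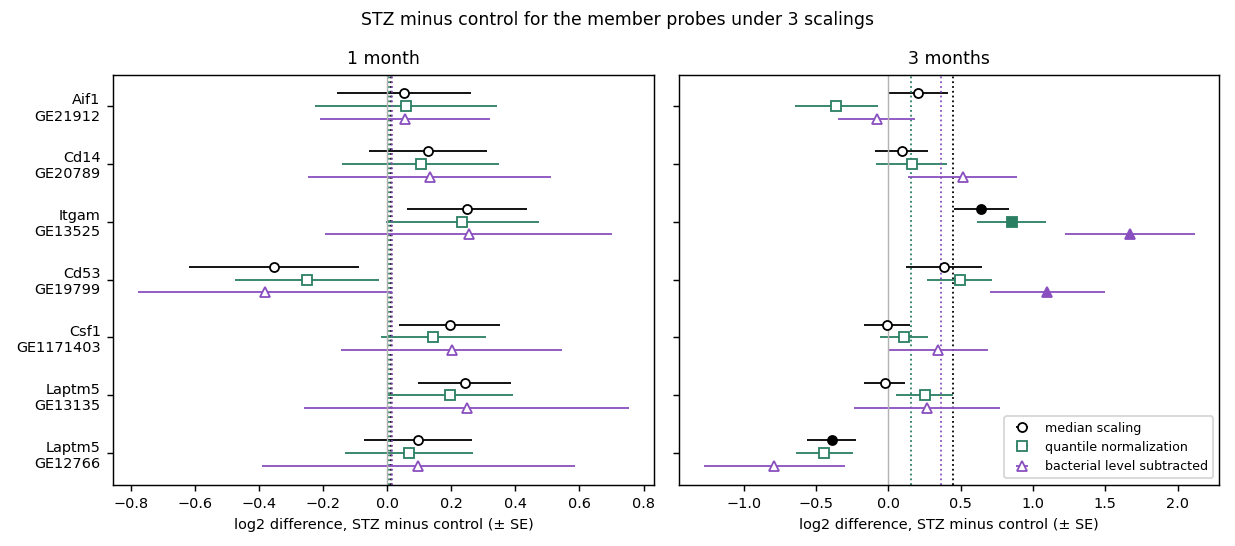
Log2 difference of STZ minus control (horizontal axis) for the 7 tested marker probes at 1 month and 3 months, with bars of 1 SE, under median scaling, quantile normalization and subtraction of the bacterial level. Filled symbols were called, dotted lines give the median of all tested probes in the same setting; at 3 months Itgam was called under all 3 settings, Cd53 after subtraction of the bacterial level alone and the lower Laptm5 difference under median scaling alone.

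Cd53 encodes a tetraspanin of the leukocyte surface that organizes integrins and other receptors. On 3 month arrays its probe ran from 0.679 through 0.933 to 1.06 in controls and from 1.02 through 1.14 to 1.35 in STZ retinas. Although 5 of 6 STZ arrays exceeded the highest control array, no array of either group was above background. The log2 difference was 0.38 (SE 0.27) with a limma adjusted p of 0.214 in the model of all 24 arrays. That model shares its estimate of spread with the 1 month groups, in which 1M STZ 2 read 0.219 and the other 5 STZ arrays between 0.891 and 1.32. Without that array the 3 month difference remained at 0.38 with an SE of 0.14 and an adjusted p of 0.0230, and a model of the 3 month arrays alone gave an adjusted p of 0.0466. With all 24 arrays it was also called after subtraction of the bacterial level (1.10, limma adjusted p of 0.0400) and by the methods' test of the 3 month arrays before adjustment, though not after it (adjusted p of 0.0576). At 1 month controls read 0.864, 1.06 and 1.24 and the STZ median was 1.01. The 1 month difference was -0.35 (SE 0.27) with 1M STZ 2 and 0.027 (SE 0.14) without it, so it turned direction on that array, and neither was called.

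Laptm5 encodes a lysosomal transmembrane protein of blood cells that lowers the surface level of antigen receptors. Both Laptm5 probes are assigned to the same RefSeq transcript, but whether both measure it was not tested. The first, GE13135, read 0.833, 0.904 and 1.10 on 1 month control arrays and 0.934, 1.13 and 1.24 on 1 month STZ arrays, where 3 STZ arrays exceeded the highest control and all 6 exceeded the control median. At 3 months it read 0.523, 0.715 and 0.945 on control arrays and 0.575, 0.690 and 0.888 on STZ arrays. The log2 differences of GE13135 were 0.24 (SE 0.14) at 1 month and -0.026 (SE 0.14) at 3 months, with limma adjusted p-values of 1.00 and 0.883. Quantile normalization turned the 3 month sign, to 0.25.

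The other Laptm5 probe, GE12766, read 0.337, 0.489 and 0.572 on 1 month control arrays and 0.387, 0.498 and 0.635 on 1 month STZ arrays. At 3 months it read 0.664, 0.973 and 1.34 on control arrays and 0.594, 0.722 and 0.904 on STZ arrays, with 2 STZ arrays under the lowest control array and the highest value again on 3M Control 2. Its log2 difference was 0.096 (SE 0.17) at 1 month and -0.39 (SE 0.17) at 3 months, the latter with a limma adjusted p of 0.0494. No array of any group was above background for this probe, so the difference is one of intensities within the range of the bacterial probes, and no fold is given. The 3 month log2 difference of the bacterial probes had a median of -0.47 over the 6 dimmest genes and of 0.12 over the other 6 genes. The call was made in 8 of 24 fits that left out 1 array and was lost without 3M Control 2 (-0.29, adjusted p of 0.139). The 2 Laptm5 probes thus disagreed at 3 months, as 1 was called lower and the other was not, though the difference between the probes was not tested.

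Ptprc encodes CD45, the phosphatase that sets the threshold of antigen receptor signalling in every nucleated leukocyte. Its scaled intensity ran from -0.0034 to 0.0389 on 1 month control arrays, from 0.0173 to 0.0668 on 1 month STZ arrays, from 0.297 to 0.537 on 3 month control arrays and from 0.185 to 0.619 on 3 month STZ arrays. All of these values were below the median bacterial probe of their array, and the probe was under the filter on dim probes. With no filter the log2 difference was 0.59 (SE 0.37) at 1 month and -0.29 (SE 0.37) at 3 months, with limma adjusted p-values of 1.00 and 0.509. The level of this transcript was therefore not detectable on these arrays.

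Between the time points, the scaled intensity of Itgam in control retinas had a median of 2.31 at 1 month and 0.946 at 3 months, while the Ptprc probe had 0.0259 and 0.395. Because the bacterial probes also differed between the time points, and age changed with time, these shifts cannot be told apart from the background and no test was made between control groups.

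After the mean of each group was removed, the 21 pairs of the 7 tested probes had a median Pearson correlation of 0.032 over 24 arrays, against 0.25 for pairs of the 2813 named probes of the array. Without 3M Control 2 the medians were 0.11 and 0.16. Within the 12 arrays at 1 month they were 0.13 and 0.0077, and within the 12 arrays at 3 months -0.046 and 0.46, so the marker pairs lay above the other pairs at 1 month and below them at 3 months. The highest correlation was 0.63, between Aif1 and Cd14, and the lowest was -0.50, between Aif1 and Itgam. Both depended on 3M Control 2, as without it they were 0.17 and -0.086. The 2 Laptm5 probes, which are assigned to the same transcript, had a correlation of 0.34. These correlations describe arrays that share brightness and background, and most of the probes were near the background.

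**Figure D3:**
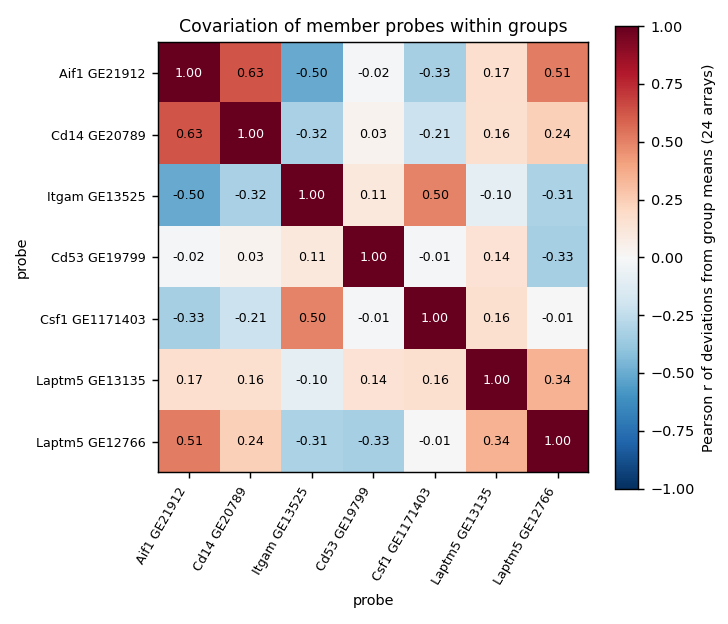
Pearson correlation between the 7 tested marker probes after removal of group means, over 24 arrays (color scale from -1 to 1, rows and columns are probes). Values ran from -0.50 for Aif1 with Itgam to 0.63 for Aif1 with Cd14, and the 2 Laptm5 probes had 0.34.

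Among 2806 other named genes, the 5 whose deviations from the group means were most like the mean deviation of the tested marker genes over the 24 arrays were Tdo2 (r = 0.81), Kcnj2 (0.72), Ccn3 (0.69), Cnga2 (0.69) and Cd93 (0.67). The median gene had a correlation of -0.20 with that mean. Except for Cd93, these genes were above background on no 3 month array, and none of the 5 was called at either time point.

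Genes that work with the markers were read from lists of companion genes, of which 37 were named and tested. Here and in the lists of other cells below, each gene is given by 1 probe. Some genes had more named probes, such as 3 for Icam1 and 2 each for Vcam1 and Inpp5d, and those others are not reported. At 3 months 23 of the 37 were called higher and 2 lower in STZ retinas, and at 1 month 0 were called, where 50.5% of all tested probes were called higher and 3.55% lower at 3 months. Their median log2 difference was 0.51 at 3 months and 0.068 at 1 month, against 0.44 and 0.013 for all tested probes, and 15 of the 37 lay under the 3 month median of all probes. Under quantile normalization 15 of the 37 were called, where 31.5% of all tested probes were, 14 of them also called with median scaling. On all 24 arrays 12 of the 37 were above background, and 10 of these were called at 3 months.

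The adaptor encoded by Tyrobp signals with Fc receptors through kinases of the Src and Syk families. Of 8 tested genes of this pathway 3 were called higher at 3 months, with a list median of 0.19. Inpp5d, the lipid phosphatase SHIP1 that restrains this signalling, differed by 0.99 (SE 0.27) with a limma adjusted p of 0.00493, although it was above background on all 12 arrays at 1 month and on 0 at 3 months. Sirpa, the inhibitory receptor for CD47, differed by 0.72 and the kinase Lyn by 0.43, both above background on all 24 arrays and both named after their values were seen, and under quantile normalization the values were 0.10 and 0.041 with no call. Vav1, a guanine nucleotide exchange factor, had the lowest value, -0.32, which was not called.

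Among 3 tested Fc receptors, Fcgrt, the neonatal Fc receptor that recycles antibody, rose by 1.11 (SE 0.21) from 0.604 to 2.36 on control arrays to 2.56 to 3.32 on STZ arrays, and Fcgr2a, an activating Fc receptor of myeloid cells, was lower, with a difference of -0.82 (SE 0.30, limma adjusted p of 0.0245). Fcgr2a read 0.570 to 3.60 on 3 month control arrays and 0.634 to 0.810 on STZ arrays, and it was above background on 2 control arrays and on 0 STZ arrays. Both calls were also made under quantile normalization, with 0.94 and -1.13. The third gene, Fcer1a, differed by 0.26 and was not called.

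Of 3 tested genes among leukocyte integrins and their ligands, 2 were called higher at 3 months. Vcam1, an endothelial and glial ligand of leukocyte integrins, rose by 0.82 (SE 0.17), with a scaled intensity of 0.649 to 1.67 on control and 1.68 to 2.27 on STZ arrays. Icam1, the ligand that Itgam and other beta-2 integrins bind named after its values were seen, rose by 0.64 (SE 0.18) with a bound of at least 1.09-fold, as 0 control and 4 STZ arrays were above background. Itgae, an integrin chain of mucosal T cells, differed by 0.016. Both called genes were also called under quantile normalization.

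In the list of CSF1 and related growth factors 1 of 2 tested genes was called higher and 1 lower, Kit, the stem cell factor receptor, by 0.50 and Csf3, the granulocyte growth factor, by -0.48, and no 3 month array was above background for either. In the Toll-like receptor list, Tlr9, a receptor for DNA, rose by 0.75 (SE 0.15), while Tlr2, a receptor for bacterial lipoproteins, had -0.14 and Rela 0.13 with no call. Of 5 tetraspanins 3 were called higher, with 0.92 for Cd81 as the highest and 0.37 for Tspan2, not called, as the lowest, and under quantile normalization 0 of the 5 were called. Ptpn6, the phosphatase SHP-1 and the single tested gene of the phosphatase list, differed by 0.071 and was not called.

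The lysosomal and phagocytic genes had a list median of 0.60, and 9 of 10 were called higher at 3 months, beside an all-probe median of 0.44 and 50.5% of all probes called higher. Gpnmb, a glycoprotein of phagocytes and pigment cells, rose by 1.25 (SE 0.24) from 1.03 to 1.83 on control arrays to 1.72 to 5.50 on STZ arrays, and Ctsd, the protease cathepsin D, was the lowest with 0.36 and was not called. Quantile normalization called 3 of the 10, Gpnmb, Npc2 and Lamp2, and turned the sign of Ctsb, Ctsd and Ctss. The 2 tested genes of the list of homeostatic microglia, P2rx4 and P2rx7, which encode ATP-gated channels, rose by 0.71 and 0.38, and Ncf1, a subunit of the phagocyte NADPH oxidase, rose by 0.83, all 3 also called under quantile normalization. For P2rx4, P2rx7 and Ncf1 0 of 6 control arrays at 3 months were above background, and 4, 0 and 5 of the STZ arrays were.

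**Figure D4:**
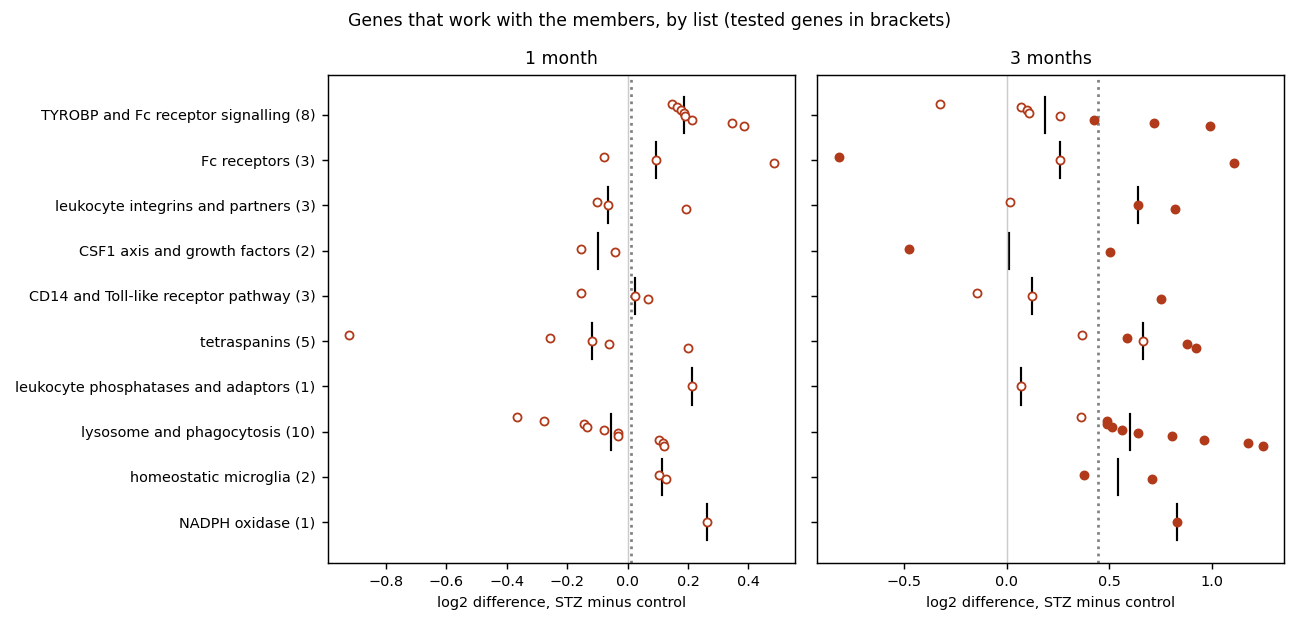
Log2 difference of STZ minus control (horizontal axis) for the tested companion genes at 1 month and 3 months, one row per list with the number of tested genes in brackets. Each point is a gene, filled when called, black bars give list medians and dotted lines the median of all tested probes; at 3 months 23 of 37 genes were called higher and 2 lower, and at 1 month 0 were called.

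Markers of other cells differed in how many were called at 3 months, where 50.5% of all tested probes were called higher. For blood cells, 1 of 8 named T cell genes, Cd28, was bright enough to be tested and was not called. At 3 months its levels were 0.352 to 0.685 in control and 0.577 to 0.886 in STZ arrays. In no group was Cd28 above background on all 6 arrays, and the other 7 genes were too dim to be tested. Of 4 named neutrophil genes, whose cells also carry Itgam, 2 were tested and 0 called, with sums of 1.52 to 2.43 in control and 1.51 to 1.83 in STZ arrays. Cd24, the single named gene of the B cell list, which neural cells also express, was called higher with 1.90. Of 5 named NK cell genes 2 were tested and 0 called, and of 3 erythrocyte genes 1 was called higher. Lgals3, the single tested gene of the macrophage and monocyte list, which reactive glia also express, rose by 2.84. The 6 tested genes of the reactive glia list all rose, with a median of 1.46 and summed levels of 16.8 to 43.3 in control and 66.0 to 373 in STZ arrays. The sum of 373 held a Timp1 value of 287 on 1 STZ array, where the median of Timp1 over the 3 month STZ arrays was 10.9. The lens list, whose genes belong to a neighboring tissue, had 7 of 8 called higher with a median of 1.44, and the lists for endothelium, rods and Mueller glia had 2 of 2, 2 of 5 and 2 of 5 called higher, the last pair under the share of all probes, while 0 of 2 genes of the pigment epithelium were called. Under quantile normalization all 6 reactive glia genes were called higher, with a median of 0.99, against 2 of 8 lens genes and 0 of 2 endothelial genes, all 5 rod genes had a negative sign, and the tested T cell gene, Cd28, and 1 neutrophil gene, Mmp9, were called. The part of these cells in the Itgam difference was not tested.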

How the data were processed

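Per the labels and the study's methods, the authors scanned CodeLink arrays with a 1-colour label, excluded defective spots, subtracted the local background and normalized within each array with CodeLink software version 4.1. The deposited files hold that intensity, both as such and after division by an array constant. Here each array was scaled to its median rat probe, values were raised to 0.01 where lower, and log2 was taken. Rat probes whose median scaled intensity exceeded 0.554, the 35th percentile over probes, with at least 4 values per group, were tested, 22025 in all. limma 3.58.1 in R 4.3.3 fitted a model of the 4 groups, with calls at an adjusted p under 0.05 and 1.2-fold, and was tested on simulated data. Precision is limited by 6 arrays per group and by background. Arrays were treated as separate samples, although the 1 month control arrays may outnumber their rats, in which case p-values partly measure technical spread. Symbols, promoters and build GRCr8 come from RefSeq, with 4675 of 5469 accessions matched. The CodeLink flags were not used.

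The markers and gene lists were chosen with earlier results of these data known. Companion genes named are the highest and lowest of each list at 3 months and the 5 genes most like the markers, and any others were chosen after their values were seen. Alternatives were the methods' test (each time point alone, unequal variances, p under 0.01), separate models, the replicate block, quantile normalization (overall or within each time point), the deposited normalized or series-level values, subtraction of the 5th percentile, brightness or spread as a covariate, other filters, a floor of 0.1, a variance trend, no fold limit and each array left out. Subtraction of the bacterial level was added after seeing the data.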

Additional observations from a re-analysis of the deposited data

Results flagged for a closer look

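A value far from the other 5 arrays of its group was found in 3 of the 32 groups of 6 arrays examined, by the gap to the nearest array divided by the range of the group, where chance flags about 1 in 20 groups. Cd14 on 3M Control 2 had a share of 0.668, with a scaled intensity of 1.91 where the other control arrays lay between 0.742 and 1.02. Cd14 on 3M STZ 4 had a share of 0.664, with 1.53 where the others lay between 0.900 and 1.08. Cd53 on 1M STZ 2 had a share of 0.782, with 0.219 where the others lay between 0.891 and 1.32.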

How the results depend on the processing

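Itgam was called higher at 3 months in all 24 fits that left out an array (0.48 to 0.75), and lost its call under the methods' test (adjusted p of 0.0686) and with array brightness or spread as a covariate. The count of marker probes called at 3 months, 2 of 7, became 1 of 7 under both quantile normalizations. The methods' test also gave 1 of 7, that of Cd53, and 0 of 7 after adjustment, as did either covariate. The filters changed which marker probes were tested. When dim probes were kept, 1 of 8 was called, and above the bacterial limit 1 of 2, Itgam. The filter on all arrays left only Aif1, which was not called, where 9155 of all 15176 tested probes were. Itgam was thus not tested under that filter. With an array left out the count was 1 to 3 of 7. With the replicate number as a block it was 1, since the lower Laptm5 call was lost (adjusted p of 0.0504), but the numbers do not pair the samples: same-numbered arrays had correlations from -0.24 to 0.25, over 0.1 in 5 of 12 pairs, and 3 of 12 arrays correlated best with their own number. Leaving out an array gave 0 marker probes at 1 month throughout, and 0 to 1 for the interaction. The 1 was Laptm5 GE12766 without 3M Control 6 (-0.59, limma adjusted p of 0.0398), where 9230 of all 22025 tested probes were called.

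At 3 months the calls over all probes, 11911, became 3722 and 1921 under the methods' test before and after adjustment, 6948 and 5536 under quantile normalization overall and within time points, 6140 under quantile normalization without 3M Control 2, 6301 after subtraction of the bacterial level, 4058 and 0 with brightness and spread as covariates, and 8734 to 14055 with an array left out. At 1 month the 2 calls became 262 and 0 under the methods' test before and after adjustment, 4 with no filter, 1 under the block, quantile normalization within time points, a floor of 0.1 or a variance trend, 0 under the other settings that changed the count, and 1 to 5 with an array left out. For the interaction, 3414 calls became 866 under quantile normalization within time points, 1862 after subtraction of the bacterial level, 1228 and 0 with brightness and spread as covariates, and 759 to 9230 with an array left out. The causes were not tested.

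Signs at 3 months turned for Aif1 under quantile normalization overall and within time points (-0.36 and -0.36, but 0.024 overall without 3M Control 2) and subtraction of the bacterial level (-0.081). For Csf1 they turned to 0.11 and 0.067 under these quantile normalizations, 0.0011 after subtraction of the 5th percentile, 0.34 after that of the bacterial level and 0.36 with spread as a covariate. For Laptm5 GE13135 the values were 0.25, 0.14, 0.058, 0.27 and 0.42 under the same 5 settings, and 0.32 under quantile normalization without 3M Control 2. With an array left out the range crossed 0 for Cd14 (-0.015 to 0.28), Csf1 (-0.089 to 0.050) and Laptm5 GE13135 (-0.11 to 0.060) at 3 months, and for Aif1 (-0.0096 to 0.11) and Cd53 (-0.49 to 0.027) at 1 month. Of 290 member values at 3 months 228 kept sign and call, and of 290 at 1 month 287. Signal over background limits all marker probes but Aif1 at 3 months.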
